A study of Mus musculus with 2 samples.

Results

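Lipid-associated macrophages are macrophages that take up and store lipid in adipose tissue, arterial plaques and other tissues, and they are recognised by a shared set of transcripts. The 10 genes examined here were named from that set with earlier results of these data known. They are Gpnmb, Spp1, Trem2, Tyrobp, Lgals3, Fabp4, Fabp5, Lpl, Apoe and Plin2. All 10 were listed in both libraries, among 15623 genes listed in either. RNA had been sequenced from peritoneal macrophages of wild type C57BL/6 mice aged 6 to 8 weeks, elicited with 4% thioglycollate and purified by adherence for 4 h. After starvation in 0.5% FBS, 1 sample stayed nontreated (NT) and the other received IL-4 at 20 ng per mL for 6 h. Both groups shared the genotype, the irritant and the starvation. There was 1 library per group, with 11035641 expected counts in NT and 11250099 in IL-4, and without replicates the spread between animals is unknown for every difference given here.

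In this program the receptor Trem2 binds lipids and lipoproteins at the cell surface and signals through the adaptor Tyrobp. Lpl releases fatty acids from lipoproteins, Fabp4 and Fabp5 carry fatty acids inside the cell, Plin2 coats the lipid droplets in which they are stored, and Apoe carries cholesterol out. Gpnmb is a membrane glycoprotein of lysosomes and the cell surface, Lgals3 (galectin-3) is a sugar-binding protein, and Spp1 (osteopontin) is a secreted ligand of integrins and Cd44. Gpnmb is a known target of the MiT/TFE transcription factors, and Fabp4, Lpl and Plin2 are known targets of the lipid-sensing receptor Pparg.

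RefSeq sequences around the transcription start (GRCm38.p6, 250 bases before the start and 50 from it on) were available for 6 of the 10 genes. Those of 3 genes are given because they are the most abundant member, Gpnmb (chr6:49036268-49036567, plus strand), the member with the largest ratio above 0, Lgals3 (chr14:47373610-47373909, plus strand), and the lipid droplet gene Plin2 (chr4:86670010-86670309, minus strand). Capitals mark matches to the motifs searched.
Gpnmb: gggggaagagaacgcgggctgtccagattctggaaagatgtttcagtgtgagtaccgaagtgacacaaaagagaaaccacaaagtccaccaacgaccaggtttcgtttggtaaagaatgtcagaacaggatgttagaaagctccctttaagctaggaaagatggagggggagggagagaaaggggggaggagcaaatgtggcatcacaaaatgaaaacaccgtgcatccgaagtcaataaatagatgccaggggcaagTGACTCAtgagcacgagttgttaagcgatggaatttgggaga
Lgals3: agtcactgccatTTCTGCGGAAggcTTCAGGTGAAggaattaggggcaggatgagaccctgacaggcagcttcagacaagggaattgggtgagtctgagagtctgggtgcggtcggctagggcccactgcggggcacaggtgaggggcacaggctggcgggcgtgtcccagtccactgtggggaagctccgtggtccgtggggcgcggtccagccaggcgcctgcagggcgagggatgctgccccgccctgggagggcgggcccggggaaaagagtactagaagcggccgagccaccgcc
Plin2: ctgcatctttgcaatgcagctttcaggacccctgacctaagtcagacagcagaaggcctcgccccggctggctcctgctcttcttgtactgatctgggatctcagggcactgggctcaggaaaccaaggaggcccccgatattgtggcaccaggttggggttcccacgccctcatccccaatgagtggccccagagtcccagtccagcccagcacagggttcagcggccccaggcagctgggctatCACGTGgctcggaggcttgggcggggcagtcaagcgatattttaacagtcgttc

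Motifs were searched on both strands of 9 windows, from 6 members. No window was available for Tyrobp, Fabp4, Fabp5 and Lpl. The shares given below are per window, so a match in any of the 9 windows is less rare. The Gpnmb window held 1 match to the AP-1 motif TGACTCA, which was present in 5.20% of all 32851 windows of this length. The Lgals3 window held 2 matches to the Stat6 palindrome TTCNNNNGAA, starting 238 and 225 bases before the start, and 6.95% of all windows held at least 1. The Plin2 window held the E-box CACGTG, bound by MiT/TFE factors among others, starting 4 bases before the start used for this window. The E-box was held by 7.15% of windows. The listed span of Plin2 reaches further upstream, to 86670217, so this match lies inside that span. The first of the Spp1 windows and an alternative Apoe window held the letters of the TATA box, TATAAA, as did 13.6% of all windows. The Spp1 match began 211 bases before the start, and those of Apoe 100 and 96 bases before it. The core of the M-box TCATGTG (3.77% of windows) was not matched in the 9 windows. Nor was a direct repeat AGGTCANAGGTCA, the element of Pparg (0.0396%). The Pparg targets Fabp4 and Lpl had no window and were not searched. The Trem2 window matched none of these motifs. A match is a stretch of letters and not a measured binding site.

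The members were among the most abundant transcripts of these cells in both libraries. FPKM, a level scaled for transcript length and for library depth, ran from 342 to 8526 over the 10 genes in NT and from 213 to 7559 in IL-4. The median of all listed genes was 5.12 FPKM in NT and 4.86 FPKM in IL-4. Together the members held 5.48% of all counts in NT (exact 95% binomial interval 5.46 to 5.49) and 5.26% in IL-4 (5.25 to 5.28). Without Gpnmb they held 2.21% and 2.37%. In bulk RNA fewer cells of a type cannot be told apart from less RNA per cell. Intervals here cover counting error alone, and reads copied by PCR that lack molecular identifiers need not come from separate molecules.

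**Figure D1:**
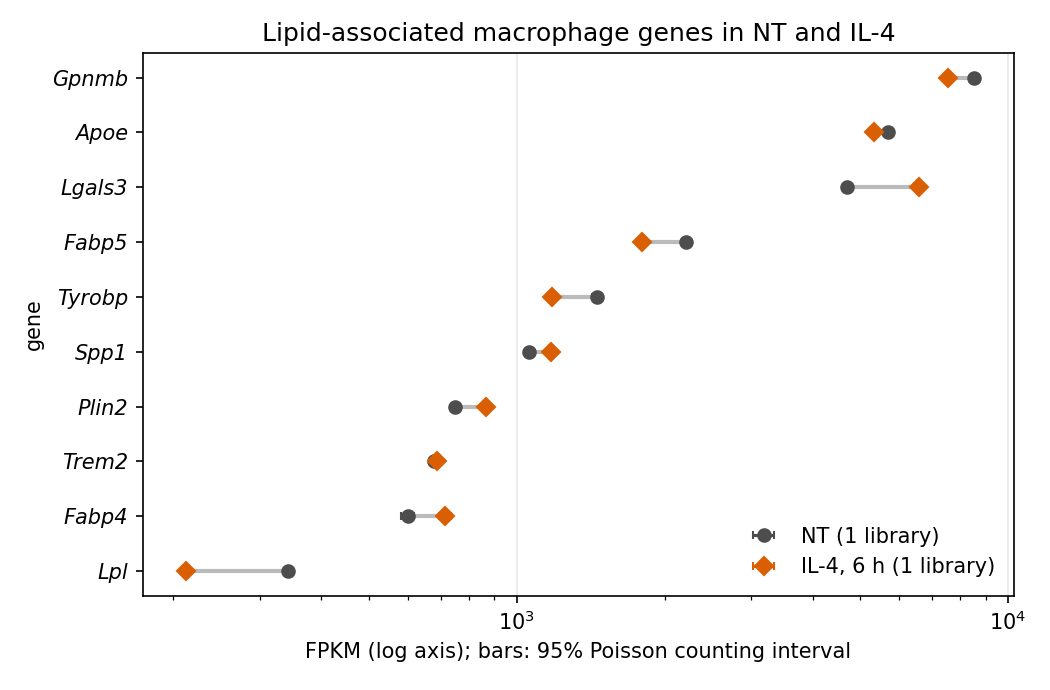
Level of each member in FPKM (log axis) in the NT library (circles) and the IL-4 library (diamonds), with 95% Poisson counting intervals that are mostly narrower than the symbols. The members keep nearly the same order, from Gpnmb at 8526 and 7559 FPKM down to Lpl at 342 and 213 FPKM.

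Gpnmb (gene 93695, chromosome 6, 49036518 to 49058182, GRCm38) had more counts than any other gene in both libraries. It had 360385 counts in NT, 3.27% of the library, and 325886 counts in IL-4, 2.90%. Its level was 8526 FPKM in NT and 7559 FPKM in IL-4, which placed it at rank 6 in each by FPKM. The genes above it in both libraries were Fth1, Ftl1, Ctsd, Lyz2 and Psap. Its log2 ratio (IL-4 over NT, scaled to the library totals) was -0.17, with a 95% counting interval from -0.18 to -0.17. The 3 genes nearest to Gpnmb in log2 FPKM over the 2 libraries were Psap (9230 and 8640 FPKM, distance 0.22), Ctss (5862 and 6357 FPKM, distance 0.60) and Ctsd (11712 and 10349 FPKM, distance 0.64). Psap encodes the precursor of the saposins, activators of lysosomal lipid breakdown, and Ctss and Ctsd encode lysosomal proteases. Only 2 libraries enter this likeness.

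Apoe (chromosome 7, 19696244 to 19701310) and Lgals3 (chromosome 14, 47373860 to 47386167) came next. Apoe was at 5690 FPKM in NT and 5338 FPKM in IL-4. Lgals3 was at 4701 FPKM in NT and 6588 FPKM in IL-4. Lgals3 was thus under Apoe in NT (ranks 10 and 8) and over it in IL-4 (ranks 7 and 9), the only pair of members to exchange places with intervals that were apart in both libraries. The log2 ratio of Lgals3 less that of Apoe was 0.58 (0.56 to 0.60).

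**Figure D2:**
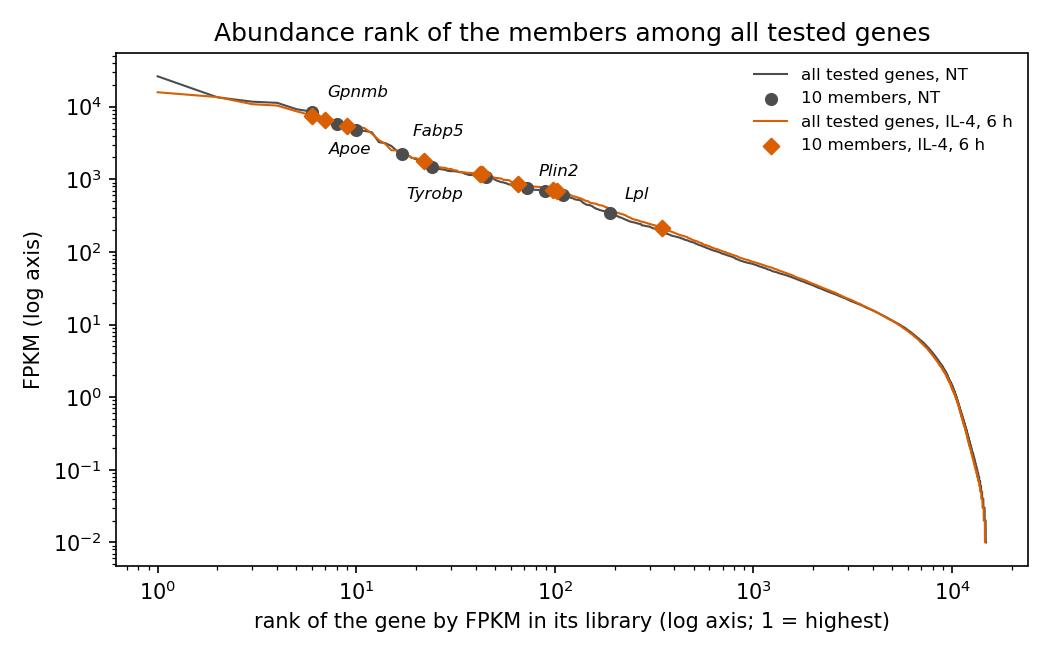
FPKM of every tested gene against its rank in its own library (both log axes; 1 is the highest), with the 10 members as circles for NT and diamonds for IL-4. The members lie between ranks 6 and 189 in NT and between ranks 6 and 347 in IL-4.

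The other 7 members were less abundant. Fabp5 was at 2207 FPKM in NT and 1796 FPKM in IL-4 (ranks 17 and 22), and Tyrobp at 1455 and 1177 FPKM (ranks 24 and 42). Spp1 was at 1059 and 1176 FPKM (ranks 45 and 43). In NT the counting intervals of neighbours in this order did not overlap, whereas in IL-4 those of Tyrobp (1151 to 1204 FPKM) and Spp1 (1159 to 1193 FPKM) did.

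Plin2 was at 750 FPKM in NT and 867 FPKM in IL-4 (ranks 72 and 65). Trem2 was at 680 and 688 FPKM (ranks 89 and 103), and Fabp4 at 599 and 715 FPKM (ranks 110 and 98). Trem2 was over Fabp4 in NT, and their intervals overlapped in IL-4 (673 to 703 and 695 to 735 FPKM). Lpl was the least abundant member, at 342 FPKM in NT and 213 FPKM in IL-4 (ranks 189 and 347).

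The comparison asks which genes respond to IL-4. A gene was called, with the thresholds used for these libraries in the study, when its log2 ratio reached 0.75 in either direction, p was no more than 0.05 and the adjusted value no more than 0.5. Of the 10 members, 0 were called higher and 0 lower at these thresholds with an exact binomial test of the reads. Over the 15593 genes tested, 4.07% were called higher and 6.28% lower, 10.4% in all. Among the 387 genes of at least 200 FPKM in either library, a limit set after the values were seen, 10.9% were called. The test compares the 2 libraries and not the conditions. At the other thresholds of the study, a fold change over 1.5 and an adjusted value of at most 0.05, 1 member (Lpl) was called lower and 0 higher, against 7.74% and 4.84% of all tested genes.

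All 10 intervals lay within 0.75 of 0, and 9 of them excluded 0. Of these, 4 lay above 0 (Lgals3, Fabp4, Plin2 and Spp1) and 5 below it (Apoe, Gpnmb, Fabp5, Tyrobp and Lpl). An interval excluding 0 was found for 38.3% of all tested genes. Such intervals narrow as counts rise, and every member had at least 4103 counts in each library. The share among genes of like abundance was not taken. The median log2 ratio was -0.04 over the members and -0.03 over all tested genes, and the median size of the ratio was 0.23 and 0.35. The value of 0.35 includes genes with few counts, whose ratios vary more by counting error. A median over genes of like abundance was not taken. The summed counts of the 10 members had a log2 ratio of -0.06 (-0.06 to -0.05).

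**Figure D3:**
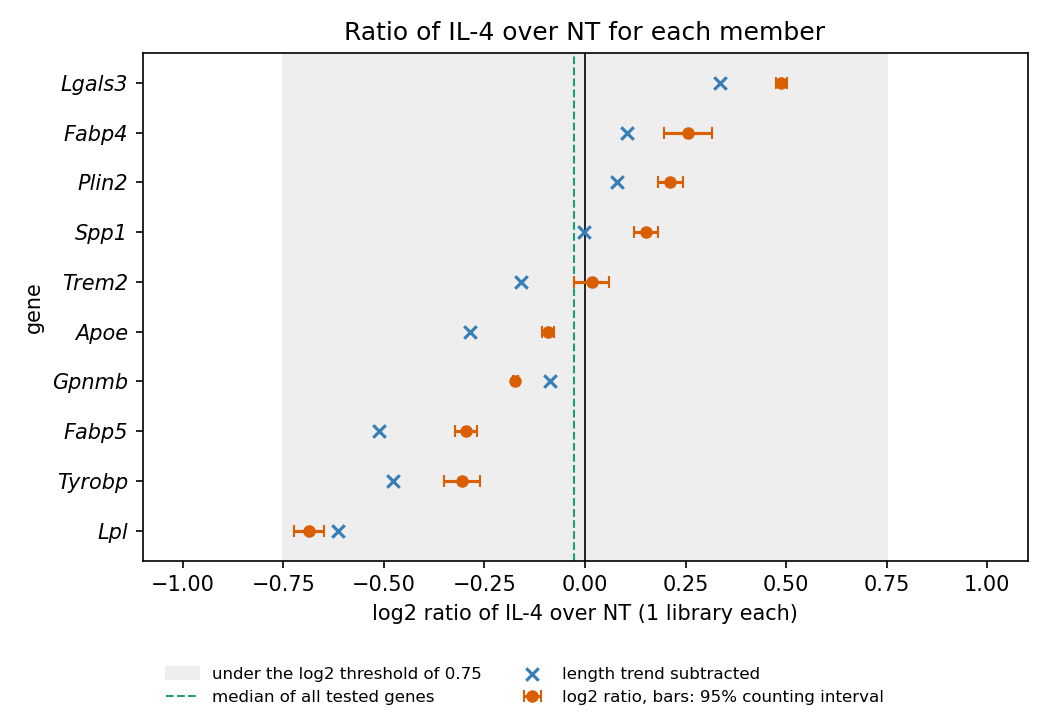
Log2 ratio of IL-4 over NT for each member (circles, 95% counting intervals) and the ratio after the length trend was subtracted (crosses), with the range under the threshold of 0.75 shaded and the median of all tested genes dashed. Every member lies in the shaded range, from Lpl at -0.69 to Lgals3 at 0.49.

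Ratios in these libraries were lower for longer transcripts, and the members differ in length, from 586 bases for Tyrobp to 4049 bases for Lpl. After subtraction of the median over genes of like length, the log2 ratios were -0.51 for Fabp5, -0.48 for Tyrobp, -0.29 for Apoe, -0.09 for Gpnmb and -0.61 for Lpl. The ratios of Lgals3, Fabp4 and Plin2 were 0.34, 0.11 and 0.08. Spp1 was at -0.0015 and Trem2 at -0.16. No member was called after the subtraction either. With 1 library per group, the length trend and the stimulation cannot be told apart.

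Lpl had the ratio farthest from 0. Lpl (chromosome 8, 68880555 to 68906932) had 15424.78 counts in NT and 9774.09 in IL-4, which is 1.61-fold fewer per total. Its log2 ratio of -0.69 (-0.72 to -0.65) stayed within the threshold. Lpl was also the 1 member whose expected counts were not whole. RSEM gives a gene such a value where reads are divided between it and another gene.

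The lists of related genes below include the members themselves and were written with earlier results of these data known. Their calls are to be read beside the shares over all tested genes, 4.07% called higher and 6.28% lower. Around Lpl, a list of 20 genes of lipases and fatty acid entry had 19 tested genes, of which 2 were called higher and 1 lower. Mgll, which splits monoglycerides, fell from 949 to 472 counts, with a log2 ratio of -1.03 (-1.20 to -0.87). Cd36, the scavenger receptor that takes up fatty acids and oxidised lipoproteins, rose from 18386 to 31898 counts, with a log2 ratio of 0.77 (0.74 to 0.79) whose interval included the threshold. Cd36 was not called with the 100 most abundant genes left out of the totals (0.747). The other called higher was the endothelial lipase gene Lipg (3 and 27 counts), named after its values were seen. Lipa, the lysosomal acid lipase, had 817 FPKM in NT and 721 FPKM in IL-4 and was not called. Gpihbp1, the endothelial anchor of Lpl, was not listed in either library.

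Fabp4 and Fabp5 lie near each other on chromosome 3 (10204342 to 10208616 and 10012585 to 10016610). Fabp4 had 4103 counts in NT and 4994 in IL-4, a log2 ratio of 0.26 (0.20 to 0.32). Fabp5 had 23126 and 19196 counts, with a log2 ratio of -0.30 (-0.32 to -0.27). The pair thus had ratios of opposite sign, and Fabp5 exceeded Fabp4 by 3.68-fold in FPKM in NT and by 2.51-fold in IL-4. The log2 ratio of Fabp4 less that of Fabp5, which does not depend on how the libraries are scaled, was 0.55 (0.49 to 0.62 by counting error). Of 15 fatty acid-binding and related proteins, 8 were tested and 0 were called. With the length trend subtracted 1 was called lower, Fabp3, which had 81 and 53 counts and moved from -0.64 to -0.79. Fabp7 had 20 and 12 counts, and Fabp1, Fabp2, Fabp6 and Fabp9 were not listed.

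Plin2 (chromosome 4, 86626910 to 86670217) had 15586 counts in NT and 18399 in IL-4, a log2 ratio of 0.21 (0.18 to 0.24). Its relative Plin3 had 116 FPKM in NT and 118 FPKM in IL-4, a log2 ratio of 0.03. In FPKM, Plin2 exceeded Lpl by 2.19-fold in NT and by 4.08-fold in IL-4. Plin1 and the droplet proteins Cidea and Cidec were not listed in either library. Of 20 perilipins and lipid droplet proteins, 17 were tested, 0 were called higher and 1 lower. The latter was Lpin2, a phosphatidate phosphatase, which fell from 397.18 to 225.56 counts, with a log2 ratio of -0.84 (-1.08 to -0.60). It was at -0.52 with the length trend subtracted, so that no gene of this list was then called.

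Fabp4, Lpl and Plin2 are also adipocyte genes, so the 10 adipocyte markers of a fixed list were read beside them. Lep, Plin1, Cidec, Cfd, Adrb3 and Car3 were at 0 in both libraries, and Retn and Plin4 had at most 1 count. Lipe, which macrophages also express, had 252 and 246 counts. Adipoq was at 0 in NT and was called higher with 139 counts in IL-4, so the summed level of the list was 22.9 CPM (counts scaled to a common total) in NT and 34.3 CPM in IL-4. The part of adipocyte RNA in the values of the 3 genes was not tested.

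Pparg, the receptor that drives lipid storage genes, rose from 1077 to 3192 counts, from 47.9 to 142 FPKM. Its log2 ratio was 1.54 (1.44 to 1.64). Of the 8 PPAR, retinoid X receptor and coactivator genes, all tested, 2 were called higher and 1 lower. Ppargc1b, a coactivator, rose from 81 to 158 counts (0.93, 0.54 to 1.34). Ppargc1a was called lower with 25 and 12.27 counts and is named after its values were seen. Its ratio of -1.03 was -0.74, and not called, with the length trend subtracted or with FPKM plus 0.1. Rxra, the partner of Pparg, had 1577 counts in each library. The log2 ratios of the members introduced as Pparg targets were 0.26 for Fabp4, 0.21 for Plin2 and -0.69 for Lpl, none of them called.

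Trem2 (chromosome 17, 48346401 to 48352276) had 8140 counts in NT and 8393 in IL-4, and its log2 ratio of 0.02 (-0.03 to 0.06) was the only one among the members with an interval that included 0. Tyrobp (chromosome 7, 30413782 to 30417582) had 8985 counts in NT and 7415 in IL-4, a log2 ratio of -0.30 (-0.35 to -0.26). Per length, Tyrobp exceeded Trem2 by 2.14-fold in NT and by 1.71-fold in IL-4. The log2 ratio of Trem2 less that of Tyrobp was 0.32 (0.26 to 0.38).

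Other genes of the Trem family were scarce. Trem1 and Trem3 were not listed, Treml1 and Treml4 had at most 6 counts, and Treml2 had 132.81 and 185.14 counts. Of 18 Trem receptor and signalling genes, 15 were tested, 0 were called higher and 1 lower. Vav3, a guanine exchange factor, fell from 549 to 310 counts, with a log2 ratio of -0.85 (-1.06 to -0.65). It was at -0.68 with the length trend subtracted, so that no gene of this list was then called. Syk, the kinase recruited by Tyrobp, had 110 FPKM in NT and 80.1 FPKM in IL-4, a log2 ratio of -0.46 (-0.51 to -0.40) that was not called.

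Lgals3 had 71837 counts in NT and 102661 in IL-4, a 1.40-fold higher share. Its log2 ratio of 0.49 (0.47 to 0.50) was the largest above 0 among the members. Lgals1, the other abundant galectin, had 1294 FPKM in NT and 1770 FPKM in IL-4, a log2 ratio of 0.45 (0.42 to 0.49). The difference between the ratios of Lgals3 and Lgals1 was 0.03 (-0.0025 to 0.07), so the interval included 0. Of 11 galectin and related genes, with Lgals3bp among them, 10 were tested and 0 were called. Lgals6 did not match a symbol and could not be looked up. Lgals2, Lgals4, Lgals7 and Lgals12 had at most 4 counts.

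Apoe had 80031 counts in NT and 76575 in IL-4, a log2 ratio of -0.09 (-0.11 to -0.08). Apoc1 and Apoc2, its neighbours in the same gene cluster, had at most 3 and 37.64 counts, and Apoc4 was not listed. Of 19 apolipoproteins, lipoprotein receptors and efflux genes, 16 were tested, 0 were called higher and 4 lower. These were Lrp1, an endocytic receptor of Apoe, the cholesterol transporter Abca1, the ubiquitin ligase Mylip and the RNA-editing enzyme Apobec1. Lrp1 fell from 21671 to 9495 counts, with a log2 ratio of -1.22 (-1.25 to -1.18), and Abca1 from 912 to 373 counts, -1.32 (-1.50 to -1.14). Both have long transcripts (14907 and 10260 bases), and with the length trend subtracted Lrp1 was at -0.62 and no longer called, while Abca1 was at -0.81. Abcg1, another cholesterol transporter, had 40.4 and 59.6 FPKM and was not called at 0.56, but was called higher at 0.89 with the trend subtracted. The list then had 1 gene called higher and 3 lower.

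Spp1 (chromosome 5, 104435111 to 104441053) had 16585 counts in NT and 18790 in IL-4, a log2 ratio of 0.15 (0.12 to 0.18). The related bone matrix genes Ibsp, Dmp1, Mepe and Dspp were not listed. Among the 14 genes of this family and its receptors, 9 were tested, 2 were called higher and 0 lower. Cd44, a receptor of osteopontin, rose from 2753 to 5698 counts, with a log2 ratio of 1.02 (0.96 to 1.09), and the integrin subunit Itgb3 from 290.68 to 717.44 counts, 1.27 (1.07 to 1.47). With the length trend subtracted the integrin subunit Itga4 (432.35 and 632.45 counts) was also called higher, moving from 0.52 to 1.03. Itgav, the partner of Itgb3, had 12.1 FPKM in NT and 12.4 FPKM in IL-4.

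Pmel, the closest relative of Gpnmb, had 8 counts in NT and 10 in IL-4. Of the MiT/TFE factors, Tfec rose from 135 to 409 counts, with a log2 ratio of 1.57 (1.29 to 1.86). Mitf (18.3 and 26.0 FPKM), Tfeb (35.0 and 47.2 FPKM) and Tfe3 (49.4 and 46.9 FPKM) were not called. In the list of 14 genes around Gpnmb, 13 were tested, 3 were called higher and 1 lower. Sdc4, a syndecan bound by Gpnmb, rose from 249.52 to 1045.92 counts, with a log2 ratio of 2.04 (1.84 to 2.24), and Cd44 is given above. Fnip2, a partner of folliculin in the control of Tfe3 and Tfeb, fell from 6647.67 to 2786.88 counts, with a log2 ratio of -1.28 (-1.35 to -1.22). With the length trend subtracted Tyr, the tyrosinase gene, was called higher as well, moving from 0.52 to 0.83.

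**Figure D4:**
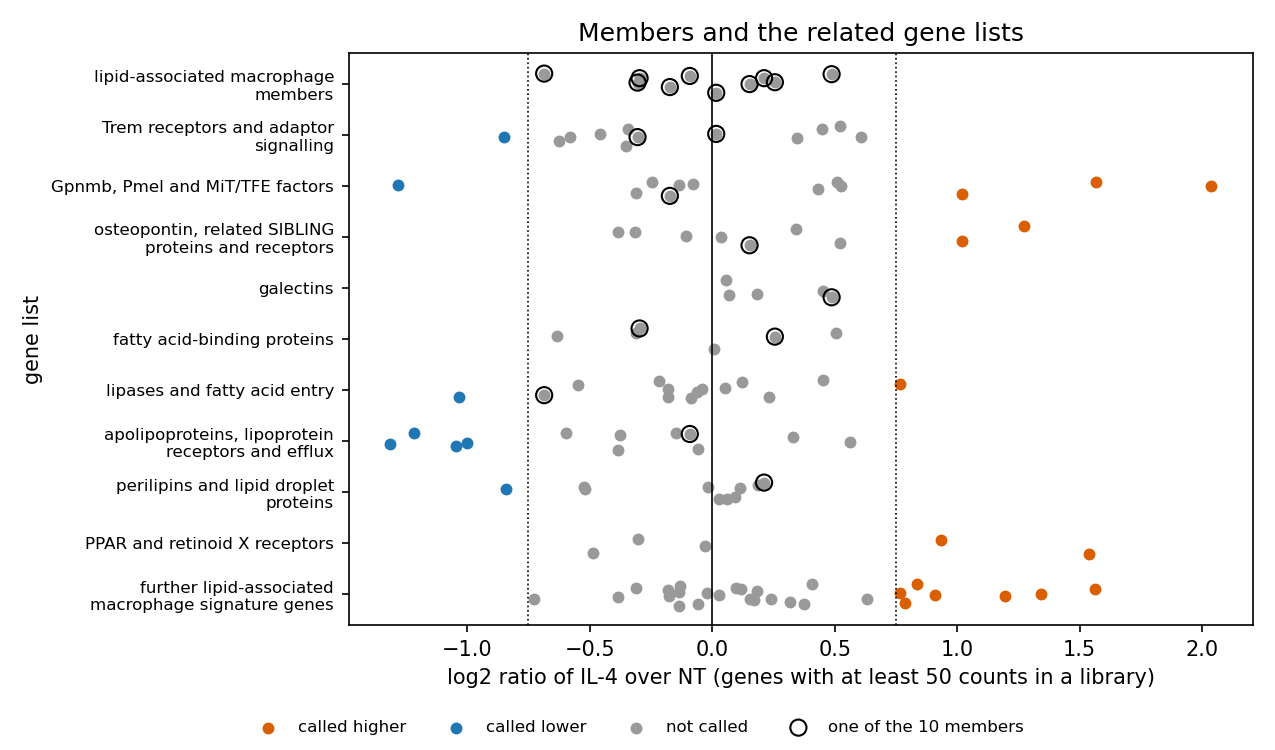
Log2 ratio of IL-4 over NT of the members (ringed) and of the genes in related lists, for genes with at least 50 counts in a library, with the thresholds of 0.75 dotted. No ringed gene passes a threshold, and most of the related genes do not either. Related genes beyond the thresholds include Sdc4 (2.04) and Pparg (1.54) above, and Abca1 (-1.32) and Fnip2 (-1.28) below.

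In a list of a further 29 genes often found with this signature, all tested, 8 were called higher and 0 lower, against 4.07% and 6.28% of all tested genes. The median log2 ratio of the list was 0.17. As the list was written with earlier results of these data known, its share of calls is not independent of them. The calls of Ctsl and Cd36, among others, were lost at an assumed coefficient of variation of 0.2. At 0.4 no gene of the list was called. Cst7 was called higher with 2 and 14 counts and is named after its values were seen. Ccl6, a chemokine, rose from 2269 to 6837 counts, with a log2 ratio of 1.56 (1.49 to 1.63), and Clec7a, the receptor dectin-1, from 5452 to 14074 counts, 1.34 (1.30 to 1.39). Csf1, the macrophage growth factor, rose from 151 to 353 counts (1.19, 0.92 to 1.48), and Ctsl, a lysosomal protease, from 25528.32 to 48849.3 counts (0.91, 0.89 to 0.93). Fth1, the ferritin heavy chain, had the ratio farthest below 0 in this list, with 266575 counts in NT and 164002 in IL-4. Its log2 ratio of -0.73 (-0.74 to -0.72) was just inside the threshold, and it was called lower with the length trend subtracted (-0.94) and at a fold change over 1.5. The tetraspanin genes Cd9 (525 and 680 FPKM) and Cd63 (1280 and 1438 FPKM) were not called.

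The libraries carried the markers of macrophages, and all 6 control genes of the response to IL-4 were called higher. The lowest of their log2 ratios was 3.33 (Mrc1), and Cish had 0 counts in NT and 662 in IL-4. One label names bone marrow as the tissue and another names peritoneal macrophages, and the latter was used. The summed level of 8 macrophage markers was 17095 CPM in NT and 17408 CPM in IL-4, of which Csf1r (0.90) was called higher and Cd14 (-1.07) lower. Marker lists of B cells, T cells, neutrophils, and mast cells and eosinophils each summed to at most 10.9 CPM in either library. That of mesothelial cells and fibroblasts summed to 215 CPM in NT and 180 CPM in IL-4, led by Col1a1 and Col1a2. Among these cell types Lrrn4 (32 and 68 counts) was called higher and Siglecf (53 and 27) lower. Msln (12 and 2), named after its values were seen, was also called lower. The part of these cell types in the values of the members was not tested.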

How the data were processed

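RNA from 2 samples, 1 NT and 1 IL-4, grouped by their titles, was sequenced on an Illumina HiSeq. Per the labels, the authors aligned reads to GRCm38/mm10 by Bowtie and estimated gene levels by RSEM (versions not given in the sources used here). The deposited expected counts are RSEM estimates not scaled for depth, and the deposited FPKM values are scaled by the authors for length and depth. The deposited weighted length of each gene in bases was used for the length trend (other unit). A gene absent from a table was set to 0. Of 15623 gene numbers, 15587 matched a symbol in the RefSeq table for GRCm38.

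Log2 ratios used counts scaled to the library totals with 0.5 count added. Expected counts were rounded, 30 genes at 0 in both were left out, and the other 15593 were each given a two-sided p from an exact binomial test conditional on the reads of the gene (2 times the smaller tail) with Benjamini-Hochberg adjustment over all of them. Intervals of ratios are Clopper-Pearson, those of FPKM exact Poisson, and those of a difference between ratios a normal approximation to counting error, all at 95%. The smallest level that 3 counts allow was 0.272 CPM in NT and 0.267 CPM in IL-4. The procedure was tested on simulated data with counting error alone. No spread between samples was simulated, so that test does not bear on differences between animals.

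The members, gene lists and tests were chosen with earlier results of these data known. Besides the members, the text names the called genes of each list with at least 50 counts, up to 4 a list by size of ratio, relatives of a member at or near 0, and 3 genes nearest to Gpnmb in log2(FPKM + 0.1). Lipa, Syk, Plin3, Lgals1, Abcg1, Fabp3, Fabp7, Treml2, Itgav, Itga4, Tyr, Fth1, Rxra, Mitf, Tfeb, Tfe3, Cd9, Cd63, the motifs and the pairs of genes compared were picked after their values were seen. Alternatives were TMM scaling in edgeR 4.0.16, size factors of DESeq2 1.42.0, totals that left out the 100 genes of highest abundance, FPKM plus 0.1 or plus 1, the exact test of edgeR at a biological coefficient of variation set to 0.1, 0.2 or 0.4, 2 other threshold sets (log2 ratio of 1, or fold over 1.5, with an adjusted value of 0.05), genes with 10 or more counts, and subtraction of a length trend (the median over 200 genes closest in length with 200 or more reads). Python 3.11.15, scipy 1.17.1, pandas 2.3.3 and R 4.3.3 were used.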

Additional observations from a re-analysis of the deposited data

How the results depend on the processing

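No paired analysis was possible because NT and IL-4 hold 1 library each, and no replicate could be left out. All 12 alternatives were run, and 0 members were called higher under each of them. The number called lower was 0 except with a fold change over 1.5 and an adjusted value of at most 0.05, which called 1 member, Lpl, at its ratio of -0.69. The median ratio of the members was -0.04 as reported, -0.0007 with TMM scaling and -0.12 with the length trend subtracted. Trem2, at 0.02 as reported, was at -0.0033 with the total without the 100 most abundant genes and at -0.16 with the length trend subtracted, and Spp1, at 0.15 as reported, was at -0.0015 with the length trend subtracted. Alternatives that changed only the test, the thresholds or the count filter left every ratio as reported by construction. Under those that changed the ratios, the other 8 members kept their sign. Lpl was between -0.71 and -0.61 and Lgals3 between 0.34 and 0.52. Over all tested genes, 635 were called higher and 979 lower as reported. These numbers were 391 and 399 with FPKM plus 1, 390 and 423 with a coefficient of variation of 0.2, 65 and 8 with 0.4, and 408 and 476 with the threshold raised to a log2 ratio of 1 and an adjusted value of 0.05. The cause of these differences was not tested, other than that stricter thresholds and a larger assumed variation call fewer genes by construction. In the lists of related genes, the calls of Vav3, Lrp1, Lpin2 and Ppargc1a were lost and those of Abcg1, Itga4, Tyr, Fabp3 and Fth1 gained with the length trend subtracted. With a coefficient of variation of 0.4 only Adipoq and the 6 control genes of IL-4 were called in any list. Every member had at least 4103 counts in each library, so depth limits only relatives such as Pmel and the scarce Trem and Fabp genes.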
